A study of Mus musculus with 5 samples.

Results

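Heat shock and chaperone genes were followed through the oligodendrocyte (OL) lineage of the adult mouse corpus callosum. The 9 genes were chosen as listed symbols: Cryab, Hspa1a, Hspa1b, Hspa5, Hspa8, Hsp90aa1, Hsp90ab1, Dnajb1 and Hsph1. All 9 are rows of the expression matrix, which holds 11733 genes. The cells came from the corpus callosum of mice at postnatal day 60, pooled from 2 mice, dissociated with an enzyme kit, cleared of myelin debris and sorted by fluorescence into a TdTom+ and a GFP+ sample. The mice carried Emx1::Cre together with the reporter Sox10::Cre-LoxP-GFP-STOP-TdTom on a mixed CBA and C57BL/6 background, and both sexes were used. Sox10 restricts the reporter to the OL lineage, and the Emx1-driven Cre turns cells of the dorsal cortical plate to TdTom, so that GFP+ cells are of ventral origin. GEO describes the tissue as healthy. Each origin was 1 library (10x Genomics 3′ version 2), so no test between the origins was possible. The 3 spinal cord samples of the series were not analysed here.

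Chaperones bind unfolded or newly made proteins and keep them from clumping. The Hsp70 proteins hold and release their clients in an ATP cycle that Hsp40 (DnaJ) proteins start and nucleotide exchange factors such as Hsp110 close, the Hsp90 proteins take over partly folded clients such as kinases and receptors, and small heat shock proteins hold unfolded ones without ATP. Some members of each family are made at all times, while others are switched on by heat shock factor 1 when proteins unfold. Cryab, the small heat shock protein αB-crystallin, is known as an abundant transcript of oligodendrocytes.

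The TdTom+ library held 1901 cells and 7129294 unique molecular identifiers (UMIs, counts of single transcripts), and the GFP+ library 952 cells and 3584940 UMIs, with medians of 3340 and 3307 UMIs per cell. The cells carry 12 labels in the deposited table, from oligodendrocyte precursors (OPC) through committed and newly formed (COP/NFOL) and myelin-forming (MFOL) to mature oligodendrocytes (MOL, with 8 labels). The labels came from clustering on the expression of these same cells, so differences between labels are descriptions without a test. COP/NFOL (11 and 8 cells) and MFOL2 (47 and 19 cells) had under 20 cells in a library and were left out of counts over labels, which left 10. Highest and lowest below are over these 10. Lineage markers went with the labels: 6 of 6 OPC markers, 6 of 6 MOL1 markers and 4 of 5 MOL2 markers were highest in their own class, as were 6 of 7 COP/NFOL and 4 of 6 MOL5/6 markers. Endothelial markers summed to 10 UMIs (TdTom+) and 7 (GFP+), with 2 of the 4 genes in the matrix at 0 in each, and 100 of the 111 microglial UMIs lay in 1 TdTom+ cell labelled MFOL2. Astrocyte markers, none of them at 0, came to 206 CPM in each library and neuronal ones to 23.3 and 37.7, with 1 of 4 genes at 0 in the GFP+ library. The libraries shared 1 cell barcode. Levels below are counts per 1000000 UMIs of the same group of cells (CPM), and intervals are exact at 95% and cover counting error only.

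The promoters of Hspa1a and Hspa1b are shown first because these near copies are both high in MOL1 and low in MOL6b, and stretches of Hsph1 and Hspa5 because each held a stress element searched for. RefSeq (GRCm38.p6) windows were found for 5 of the 9 genes, namely Hspa1a, Hspa1b, Hspa5, Dnajb1 and Hsph1. The 250 bases before the start were searched on both strands for the heat shock element, the site of heat shock factor 1, as an inward pair (GAANNTTC) or an outward pair (TTCNNGAA). Capitals mark an inward pair, which 6.69% of 32851 windows held.
Hspa1a, minus strand, chr17:34972157-34972406: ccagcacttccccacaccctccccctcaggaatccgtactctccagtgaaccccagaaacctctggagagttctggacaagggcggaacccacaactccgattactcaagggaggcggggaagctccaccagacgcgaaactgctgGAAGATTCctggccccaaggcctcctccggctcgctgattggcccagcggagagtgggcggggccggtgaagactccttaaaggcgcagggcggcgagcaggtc
Hspa1b, minus strand, chr17:34959239-34959488: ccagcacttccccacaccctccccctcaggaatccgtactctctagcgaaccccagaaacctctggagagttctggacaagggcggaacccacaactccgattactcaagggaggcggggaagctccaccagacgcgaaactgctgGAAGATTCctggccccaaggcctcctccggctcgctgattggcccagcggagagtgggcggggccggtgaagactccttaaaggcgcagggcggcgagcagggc
The windows of Hspa1a and Hspa1b were identical at 247 of 250 bases, with the substitutions C44T, T47C and T249G counted from the first base printed, Hspa1a first. Both held the pair at the same place, from base -104 to base -97 before the start.

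The stretch of Hsph1 below held an outward pair (in capitals), as did 7.17% of all windows, and that of Hspa5 the endoplasmic reticulum stress element (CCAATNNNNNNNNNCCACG, its ends in capitals), which 0.113% of all windows held.
Hsph1, minus strand, chr5:149636351-149636380: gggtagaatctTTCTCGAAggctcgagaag
Hspa5, plus strand, chr2:34772020-34772049: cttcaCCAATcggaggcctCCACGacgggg
Neither pair was found in the 2 windows of Dnajb1, and the element of 3 units (GAANNTTCNNGAA or TTCNNGAANNTTC), held by 0.466% of windows, in none of the 5 genes. The starts are those of RefSeq. GENCODE M21 begins Hspa5 at base 34771970 and Hsph1 at base 149636376, so that by GENCODE both stretches lie wholly or mostly within the gene, and it begins Dnajb1 at base 83608193, before the second window. A match is a description of letters and not a bound site.

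In GENCODE M21 (GRCm38), Hspa1a (chr17:34969190-34972156) and Hspa1b (chr17:34956436-34959238) lie next to each other on the minus strand of chromosome 17. They encode the same kind of protein, the inducible cytosolic Hsp70, and 58.8% of the 50-base stretches of the Hspa1a transcript also occur in Hspa1b. In the last 500 bases, where 3′ libraries take their reads, 0 of 451 stretches were shared. Reads from further upstream could still be split between both, so their levels are uncertain to that extent. Hspa1a overlaps Gm20481 and Cryab (chr9:50751325-50756636) overlaps Hspb2, each on the opposite strand. Whether counting used the strand is not given in the sources used here, and Hspb2 came to 5.19 and 3.91 CPM.

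The first question was which labels hold each gene (plot of levels by label). All 9 genes differed at least 2-fold between the highest and the lowest of the 10 labels in both libraries, as did 69.8% of the 2958 genes that averaged 50 CPM or more, so this count is not particular to chaperones. Of the 9, 7 reached that mean, and Hspa1b and Hsph1 did not.

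**Figure D1:**
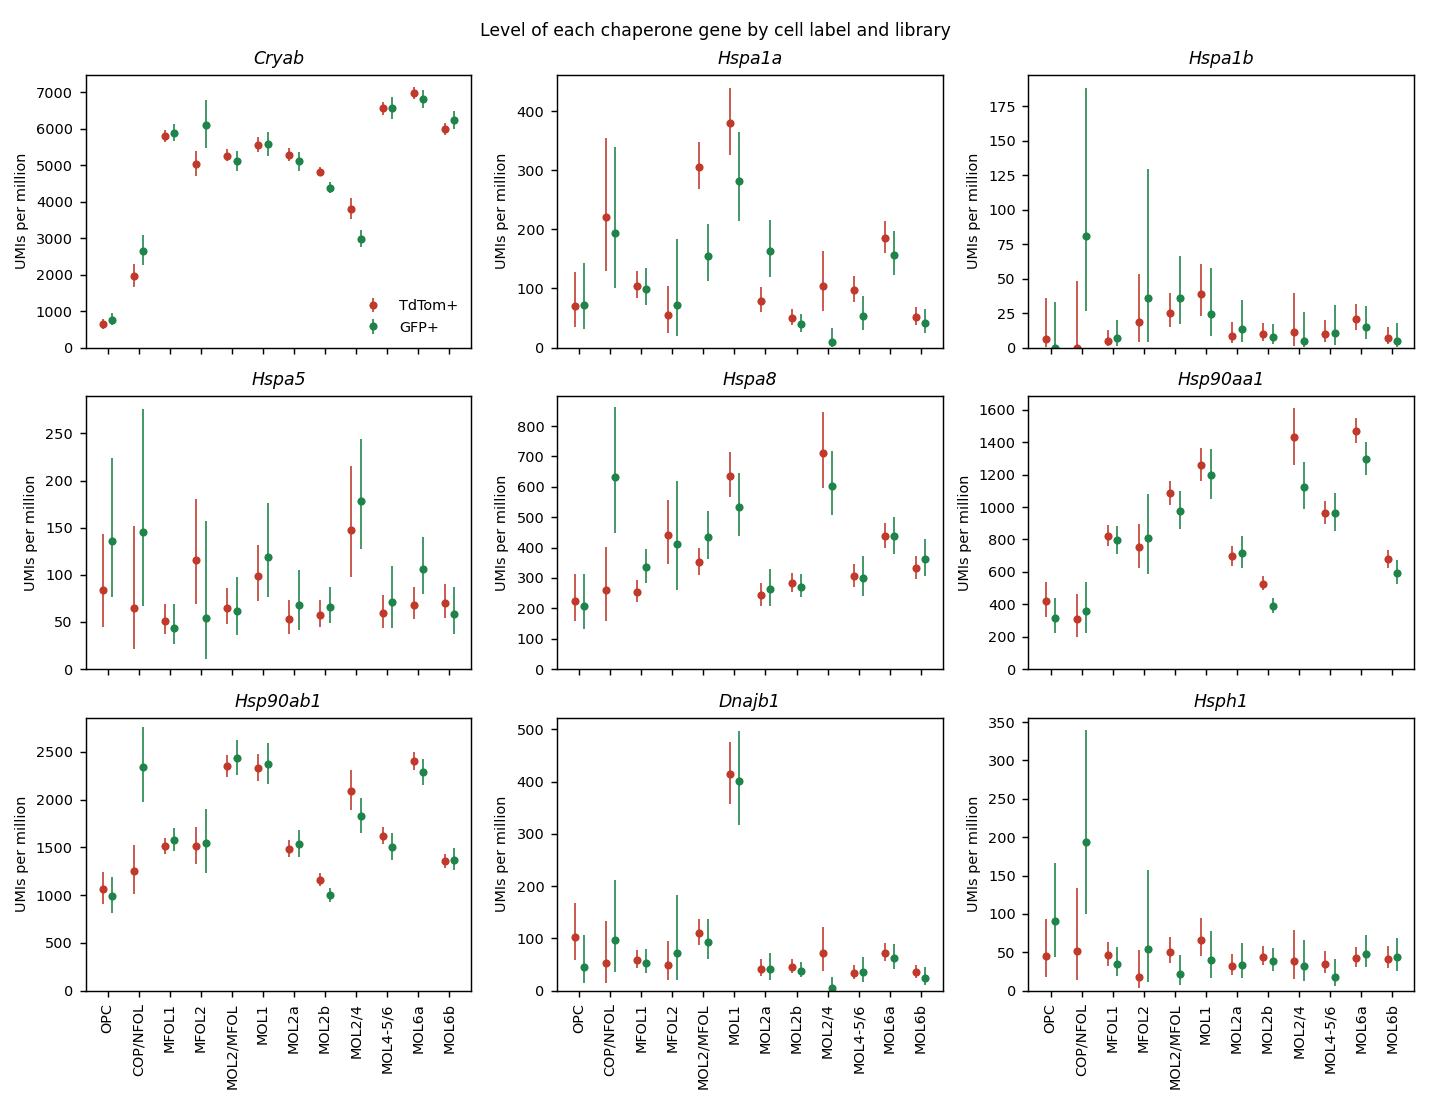
Level of each gene in CPM (vertical axis, from 0) by the 12 cell labels (horizontal axis) in the TdTom+ (red) and GFP+ (green) libraries, with bars for exact 95% Poisson intervals. Cryab was lowest in OPC, Dnajb1 stood apart in MOL1 at 414 and 400, and Hspa1a was high in MOL1, at 380 and 282.

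Cryab, the small heat shock protein, was at 5578 CPM (TdTom+) and 5257 (GFP+). It was lowest in OPC, at 632 CPM (513 to 770) and 761 CPM (607 to 942), and rose to 1951 and 2653 CPM in the few COP/NFOL cells. In MFOL1 it stood at 5799 and 5890 CPM, within the range of the mature labels. MOL6a was highest in both libraries, at 6989 and 6813 CPM, followed by MOL4-5/6 at 6560 and 6569 CPM, and MOL2/4 was lowest among mature labels, at 3801 and 2981 CPM. The order of the 10 labels was the same in both libraries (Spearman's rho of 1 over 10 labels). The intervals of MOL6a and MOL4-5/6 did not overlap in the TdTom+ library but did in the GFP+ library. In OPC, Cryab was at 11.01% and 14.2% of its level in mature cells, beside 1.20% to 11.8% in the TdTom+ and 3.77% to 13.8% in the GFP+ library for 8 myelin genes, of which Cnp was highest. The part of free RNA in the OPC values was not tested.

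Hspa1a, the inducible cytosolic Hsp70, was at 136 CPM (128 to 145) in TdTom+ cells and 98.7 CPM (88.7 to 110) in GFP+ cells. In MOL1 it reached 380 and 282 CPM. In the TdTom+ library MOL2/MFOL followed at 306 CPM and MOL6a at 186 CPM, and in the GFP+ library MOL2a at 163, MOL6a at 157 and MOL2/MFOL at 155 CPM. The intervals of MOL1 and MOL2/MFOL overlapped in the TdTom+ library, as did those of MOL1 (213 to 365) and MOL2a (120 to 216) in the GFP+ library. Low labels were MOL2b, at 49.7 and 39.6 CPM, and MOL6b, at 52.0 and 41.2 CPM. MOL2/4 went apart between libraries, with 19 UMIs (104 CPM) in 60 TdTom+ cells and 2 UMIs (9.16 CPM) in 63 GFP+ cells. OPC stood at 70.9 and 72.5 CPM, from 11 and 8 UMIs.

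Hspa1b, its near copy, was rare, at 13.9 CPM (99 UMIs) and 13.4 CPM (48 UMIs). It was highest in MOL1 in the TdTom+ library (38.6 CPM, 18 UMIs) and in MOL2/MFOL in the GFP+ library (36.02 CPM, 10 UMIs). OPC held 1 UMI in the TdTom+ library and 0 of 110417 UMIs in the GFP+ library, where a count of 0 allows up to 27.2 CPM (3 counts), so OPC gives no 2-fold difference. Leaving OPC out, MOL2/4 (1 UMI) and MOL6b (2 UMIs) were the lowest GFP+ labels. Their intervals, up to 25.5 and 17.5 CPM, overlapped that of MOL2/MFOL (17.3 to 66.2), as did that of MFOL1 (1.43 to 20.3). Only that of MOL2b, at 7.92 CPM (2.91 to 17.2) from 6 UMIs, did not. In the TdTom+ library the MOL1 interval (22.9 to 61.0) lay above those of MFOL1, MOL2a, MOL2b, MOL4-5/6 and MOL6b, while in the GFP+ library it overlapped that of every other label.

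Hspa8, the Hsp70 made at all times (Hsc70), was at 351 and 368 CPM. It was highest in MOL2/4, at 712 CPM (595 to 845) and 604 CPM (506 to 717), and in MOL1, at 637 CPM (566 to 714) and 534 CPM (438 to 644), with overlapping intervals between these labels. OPC was lowest at 226 and 208 CPM, with MOL2a at 245 and 264 CPM close by. The order of labels was alike in both libraries, with a rho of 0.96 over 10 labels.

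Hspa5, the Hsp70 of the endoplasmic reticulum (BiP), was at 67.5 and 81.2 CPM. It was highest in MOL2/4, at 148 CPM (97.4 to 215) and 179 CPM (127 to 244). In the GFP+ library 1 cell held 10 of the 39 UMIs of MOL2/4, and without it the level was 135.8 CPM, that of OPC, and the log2 ratio to the other mature labels 0.83 (0.22 to 1.40). MOL1 held 98.6 and 119 CPM and OPC 83.8 and 136 CPM. MFOL1 was lowest at 51.0 and 43.9 CPM. The intervals of MOL2/4 and MFOL1 did not overlap in either library.

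Hsp90ab1, the Hsp90 made at all times, was at 1717 and 1638 CPM, and Hsp90aa1, its more inducible partner, at 909 and 795 CPM. Hsp90ab1 formed an upper group of MOL6a (2405 and 2286 CPM), MOL2/MFOL (2349 and 2435 CPM) and MOL1 (2331 and 2372 CPM), whose intervals overlapped. It was lowest in OPC, at 1064 and 987 CPM, and in MOL2b, at 1162 and 1000 CPM. Hsp90aa1 was highest in MOL6a, at 1472 CPM (1398 to 1549) and 1297 CPM (1197 to 1403), with 1429 and 1126 CPM in MOL2/4 and 1259 and 1196 CPM in MOL1. It was low in OPC (419 and 317 CPM) and MOL2b (528 and 391.9 CPM). Both Hsp90 genes were thus lowest in the same 2 labels, and their label orders were alike between libraries, with a rho of 0.93 for Hsp90ab1 and 0.99 for Hsp90aa1.

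Dnajb1, the Hsp40 that drives the inducible Hsp70, was at 80.9 CPM (577 UMIs) and 66.1 CPM (237 UMIs). MOL1 held 414 CPM (358 to 477) and 400 CPM (318 to 498). The next label in both libraries was MOL2/MFOL, at 110 CPM (87.9 to 137) and 93.7 CPM (61.2 to 137), and the intervals of these 2 labels did not overlap. The lowest levels were 34.0 and 35.4 CPM in MOL4-5/6, 35.0 and 24.2 CPM in MOL6b, and 1 UMI in 63 GFP+ cells of MOL2/4. OPC of the TdTom+ library stood at 103 CPM, but 12 of its 16 UMIs came from 1 cell. In MOL1 the UMIs were shared among 66 of 111 TdTom+ cells and 25 of 50 GFP+ cells, with at most 10 and 11 in a cell.

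Hsph1, an Hsp110 protein that exchanges nucleotide on Hsp70, was rare, at 43.2 and 40.7 CPM. Its label orders were least alike between libraries of the 9 genes, with a rho of 0.28. In MOL1 it was at 66.5 CPM (45.2 to 94.4) in TdTom+ cells and 39.5 CPM (17.1 to 77.9) in GFP+ cells, and the highest GFP+ label was OPC, at 90.6 CPM from 10 UMIs. The intervals of the highest and the lowest label, MOL1 and MOL2a, overlapped in the TdTom+ library, and those of OPC and MOL4-5/6 in the GFP+ library did not.

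The second comparison set each mature label against the sum of the other mature labels of the same library (plot of mature labels), with a pseudocount of 1 CPM. MOL1 is the label whose markers are immediate early genes, the fast-response transcription factor genes such as Fos and Egr1. In MOL1, 5 of the 9 genes had a log2 ratio of at least 0.5 in both libraries (4 of the 7 with a mean of at least 50 CPM), against 2.16% of the 2958 genes. Dnajb1 had log2 ratios of 2.85 (2.60 to 3.13) and 3.18 (2.78 to 3.63), and Hspa1a of 1.62 (1.38 to 1.87) and 1.73 (1.29 to 2.16), TdTom+ first. Hspa8 had 0.89 and 0.57. The ratios of Hspa1b (1.46 and 0.97) and Hspa5 (0.59 and 0.54) had intervals that included 0 in the GFP+ library. Hsp90aa1 (0.45 and 0.59) and Hsp90ab1 (0.43 and 0.56) passed in the GFP+ library alone, and Cryab was level, at -0.05 and 0.06. The median over the 9 genes was 0.67 and 0.57, and over the 2958 genes -0.03 and -0.04. With a pseudocount of 10 CPM 4 genes remained in the count, without Hspa5, and with CPM averaged over cells Hsp90aa1 took the place of Hspa5.

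**Figure D2:**
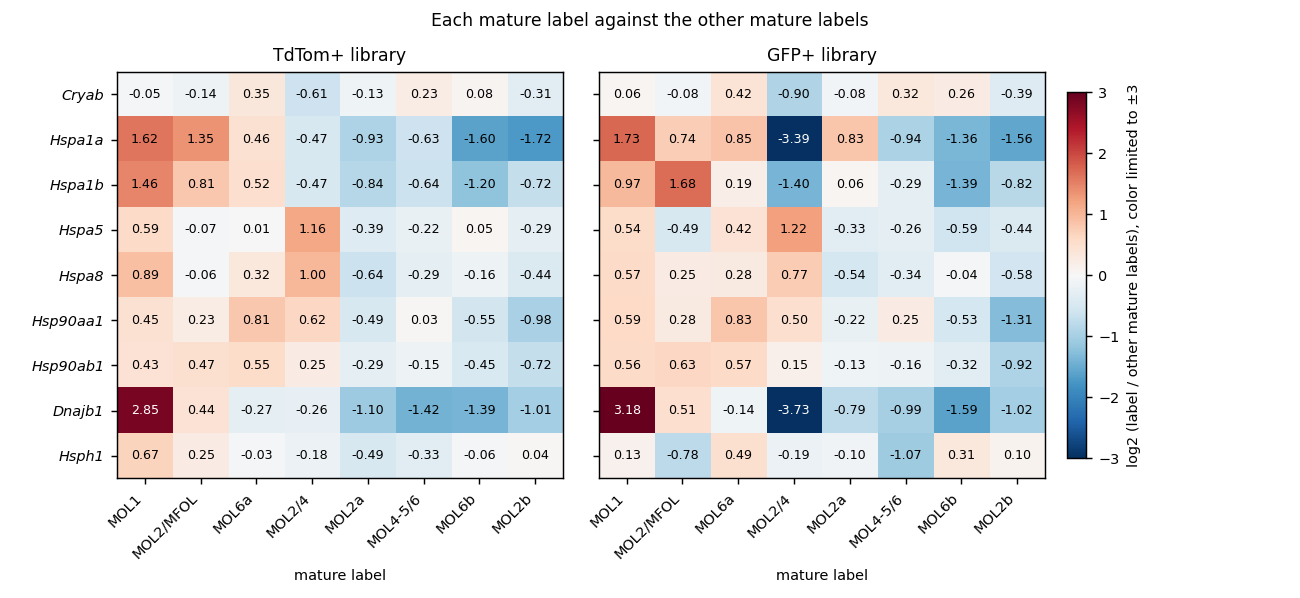
Log2 ratio of CPM in each mature label (horizontal axis) to the other mature labels together, for the 9 genes (vertical axis), in the TdTom+ (left) and GFP+ (right) libraries. Dnajb1 in MOL1, at 2.85 and 3.18, was the highest value in each library, and the MOL2b column was low for Hspa1a, Dnajb1 and both Hsp90 genes.

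MOL1 stood apart in these libraries for the 18 immediate early genes together, which summed to 10651 and 10254 CPM there, against 6526 and 5434 CPM in OPC and at most 3927 CPM in the other labels. The levels in MOL2/MFOL (3927 and 3361 CPM) and MOL6a (2982 and 2818 CPM) came after these, leaving aside MFOL2 (3314 and 2668 CPM). Median UMIs per cell in MOL1 were 3776 and 3693, and mitochondrial UMIs 1.19% and 1.36%, both within the range of the other labels. The dissociation of the tissue was the same for all labels, and its part in these levels was not tested.

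In MOL2/MFOL, 2 of 9 genes were higher by the same rule, Hspa1a (1.35 and 0.74) and Hspa1b (0.81 and 1.68), against 4.94% of all genes, which makes 1 of the 7 that averaged 50 CPM or more. In MOL6a 2 of 9 were higher, Hsp90aa1 (0.81 and 0.83) and Hsp90ab1 (0.55 and 0.57), against 2.27%. In MOL2/4, Hspa5 (1.16 and 1.22) and Hspa8 (1.00 and 0.77) were higher, against 9.84%, and Cryab was lower (-0.61 and -0.90), against 26.6%. All genes together were also shifted in MOL2/4, with medians of -0.23 and -0.29, and its cells had the highest median mitochondrial share, at 2.07% and 2.05%.

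The low side lay in MOL2b and MOL6b. In MOL2b 5 of 9 genes had a log2 ratio of at most -0.5 in both libraries, against 5.24% of all genes (4 of the 7 that averaged 50 CPM or more), namely Hspa1a (-1.72 and -1.56), Hspa1b (-0.72 and -0.82), Hsp90aa1 (-0.98 and -1.31), Hsp90ab1 (-0.72 and -0.92) and Dnajb1 (-1.01 and -1.02). For Hspa1b, from 11 and 6 UMIs, the intervals included 0 in both libraries. In MOL6b 4 were lower (3 of the 7), against 7.17%, namely Hspa1a (-1.60 and -1.36), Hspa1b (-1.20 and -1.39), Hsp90aa1 (-0.55 and -0.53) and Dnajb1 (-1.39 and -1.59). There the GFP+ interval of Hspa1b included 0 (-4.66 to 0.39). Hspa1a (-0.63 and -0.94) and Dnajb1 (-1.42 and -0.99) were also lower in MOL4-5/6, 2 of 9 against 3.31%, and Hspa8 (-0.64 and -0.54) and Dnajb1 (-1.10 and -0.79) in MOL2a, 2 of 9 against 3.21%, where the GFP+ interval of Dnajb1 included 0 (-1.78 to 0.03). The labels MOL6a and MOL6b, which share a name, thus lay on opposite sides for Hsp90aa1, and Hspa1a in MOL2a differed in direction between libraries, at -0.93 and 0.83.

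The third comparison was between the origins. None of the 9 genes had a log2 ratio of TdTom+ over GFP+ past 0.5, and 0.439% of the 2958 genes did. Hspa1a came nearest, at 0.46 (0.29 to 0.64), with the higher level in TdTom+ cells in each of the 10 labels except MOL2a and OPC. Dnajb1 was at 0.29 (0.07 to 0.52), Hsp90aa1 at 0.19 (0.13 to 0.26) and Hspa5 on the other side at -0.26 (-0.48 to -0.05). Cryab (0.09), Hsp90ab1 (0.07), Hspa8 (-0.07), Hsph1 (0.08) and Hspa1b (0.05) lay within 0.1 of 0. When both libraries were given the same shares of labels, the ratios of Hspa1a, Dnajb1 and Cryab became 0.36, 0.22 and 0.02. With 1 library per origin, a difference of this size cannot be told apart from a difference between sorts or preparations.

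**Figure D3:**
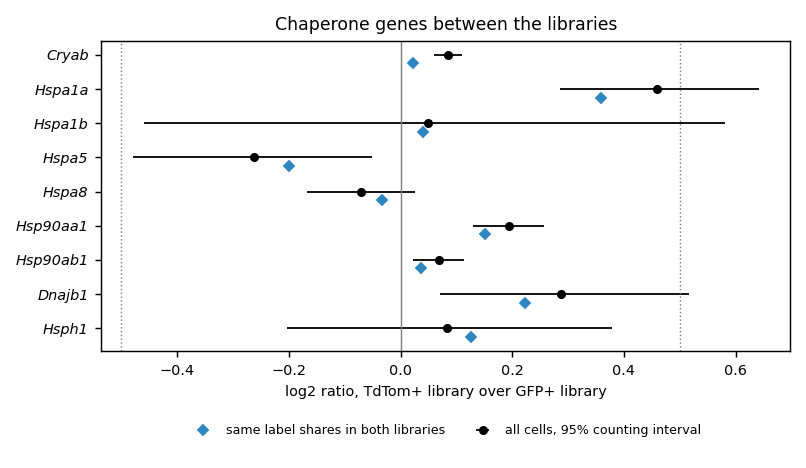
Log2 ratio of the TdTom+ to the GFP+ library (horizontal axis) for the 9 genes, over all cells (black, bars for the exact 95% counting interval) and with the same label shares in both libraries (blue diamonds). Dotted lines mark 0.5 either way, and every gene's ratio lay between them, with Hspa1a at 0.46.

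Cells of the same label were then compared with each other. Spread was taken as the coefficient of variation (CV) within labels after the part due to Poisson counting was removed, so that a CV of 0 is no more spread than counting gives (plot of spread). Hspa1a had a CV of 1.66 in the TdTom+ and 2.31 in the GFP+ library, at percentiles 99.86 and 99.97 of the 2958 genes. Dnajb1 had 1.08 and 1.16 and Hspa5 0.57 and 1.05. These 3 of the 9 genes had a CV of at least 0.5 in both libraries, against 5.34% of all genes. The more abundant genes lay lower, with Hspa8 at 0.42 and 0.39, Hsp90aa1 at 0.38 and 0.37, Hsp90ab1 at 0.29 and 0.24 and Cryab at 0.22 and 0.23, and the median over all genes was 0.23 and 0.22. Hspa1b (1.24 and 0) and Hsph1 (0.23 and 0) had too few UMIs for a stable value. With the highest 1% of cells of each gene left out, Hspa1a kept 1.62 and 2.03 and Dnajb1 0.63 and 0.69, while Hspa5 went to 0 and 0.08.

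**Figure D4:**
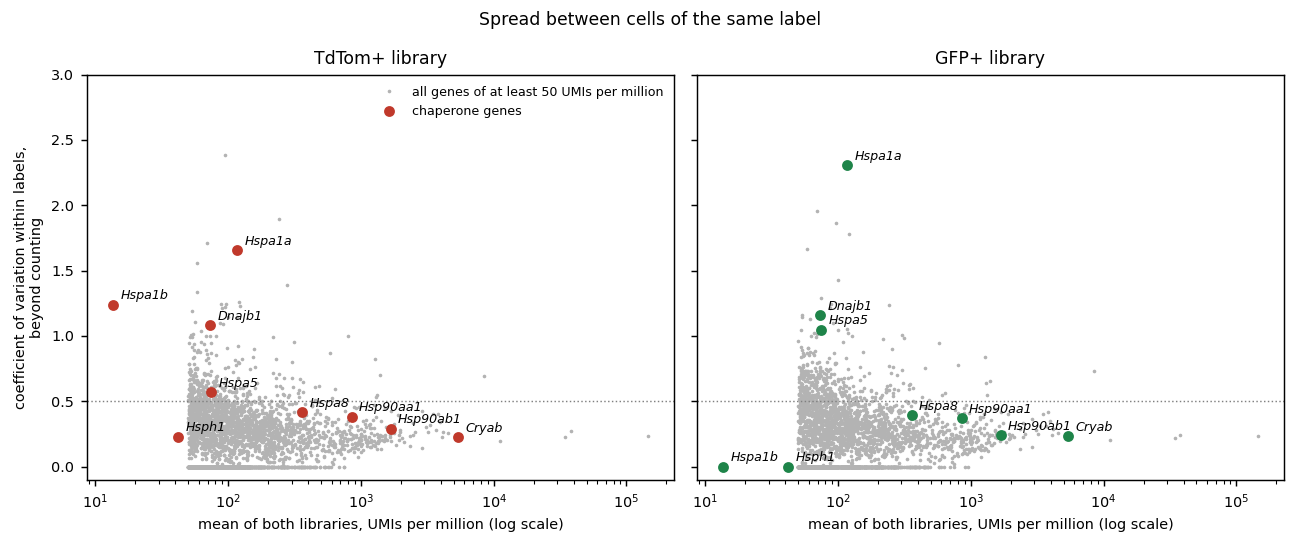
Coefficient of variation within labels beyond counting (vertical axis) against mean level in CPM (log horizontal axis) in each library, for all genes averaging 50 or more (grey) and the 9 chaperone genes (colored). The dotted line marks 0.5, and Hspa1a lay far above it, at 1.66 and 2.31.

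For shares of cells, cells were first thinned to a depth of 2400 UMIs, leaving 1751 TdTom+ and 878 GFP+ cells and setting aside 150 and 74 shallower ones. Cryab had a UMI in 99.3% (98.7 to 99.6) and 99.1% (98.2 to 99.6) of cells, Hsp90ab1 in 95.5% and 95.6%, Hsp90aa1 in 81.2% and 78.7%, and Hspa8 in 53.6% and 55.6%. Hspa1a was found in 15.9% (14.2 to 17.7) and 11.7% (9.68 to 14.0), Hspa5 in 14.0% and 16.3%, Dnajb1 in 13.7% and 11.05%, Hsph1 in 8.45% and 9.57%, and Hspa1b in 3.14% and 3.19%. Without thinning the share for Hspa1a was 19.4% and 14.2%. No label is known to lack these genes, so no share could serve as a background.

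In MOL1 the thinned shares were 45.9% (36.3 to 55.7) of 109 cells and 43.8% (29.5 to 58.8) of 48 cells for Dnajb1, and 31.2% and 25.0% for Hspa1a. In MOL2b they were 9.09% of 264 cells and 8.02% of 162 cells for Dnajb1, and 7.58% and 6.17% for Hspa1a. The most Hspa1a UMIs in 1 cell were 15 in the TdTom+ and 17 in the GFP+ library, and that GFP+ cell held 29.8% of the label's 57 UMIs in MOL1.

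Shares of cells with other members were then compared between cells with and without a UMI of Hspa1a, pooled over labels, of which MOL1 was high for both Hspa1a and Dnajb1. Of thinned TdTom+ cells with a UMI of Hspa1a, 23.3% of 279 also had Dnajb1, against 11.9% of 1472 without it, and of GFP+ cells 17.5% of 103 against 10.2% of 775. For Hspa1b the shares were 7.53% against 2.31% and 8.74% against 2.45%. Among members made at higher levels, they were 62.0% against 52.0% and 66.0% against 54.2% for Hspa8, and 89.6% against 79.6% and 90.3% against 77.2% for Hsp90aa1. For Hspa5 the shares were 13.6% against 14.1% and 19.4% against 15.9%. Of Hspa1a, Hspa1b, Dnajb1 and Hsph1, 444 TdTom+ and 224 GFP+ thinned cells had 1, 112 and 38 had 2, 18 and 4 had 3, and 0 had all 4.

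Correlations across the 2853 cells, centered within label and library, were low, with a median Pearson's r of 0.03 over the 36 pairs (plot of correlations). The highest were Hsp90aa1 with Hsp90ab1 (0.17), Hspa1a with Hspa1b (0.14), and Hspa1a with Hsp90aa1 (0.11) and Hsp90ab1 (0.10), and the lowest was Cryab with Hspa5 (-0.04). With the summed immediate early genes Hspa1a had an r of 0.18, Hsp90ab1 0.13, Hsp90aa1 0.11, Dnajb1 0.11, Cryab 0.10, Hspa8 0.08, Hspa1b 0.08, Hsph1 0.03 and Hspa5 0.03, while the median over 2950 genes was 0.00519. The cells share libraries, depths and a dissociation, the counts are sparse, and these values are descriptions.

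**Figure D5:**
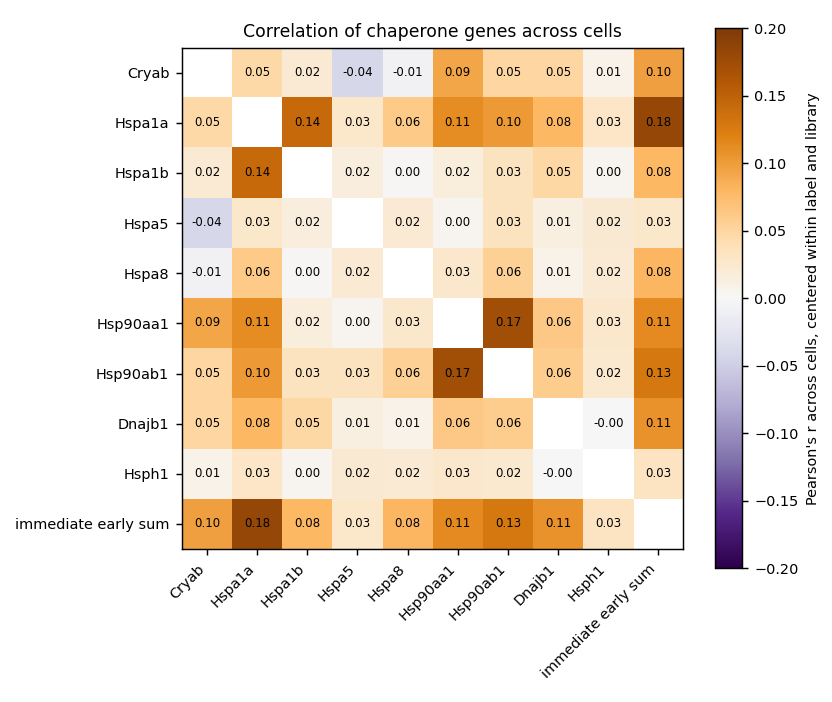
Pearson's r between pairs of the 9 genes, and with the sum of 18 immediate early genes, across 2853 cells after centering log2(CPM + 100) within label and library. Colors run from -0.2 to 0.2, and the darkest pairs were Hspa1a with the immediate early sum (0.18) and the 2 Hsp90 genes with each other (0.17).

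Across the 20 sums of 10 labels in 2 libraries, which share depth and library, the genes most like each member were named by Pearson's r of log2(CPM + 10). Hsp90aa1 and Hsp90ab1 were each other's nearest gene (r = 0.93), followed by Phgdh (0.89) and Vmp1 (0.88) for Hsp90aa1 and by Aldoa (0.93) and Phgdh (0.92) for Hsp90ab1. Dnajb1 was most like Jun (0.85), Dusp1 (0.85) and Hspa1a (0.84), and Hspa1a most like Ppp1cb (0.86), Dnajb1 (0.84) and Zfand5 (0.83). Cryab was most like Csrp1 (0.99), Nkx6-2 (0.98) and the Hsp40 gene Dnajb2 (0.98). Hspa8 was most like Tnfaip6 (0.94), Slc50a1 (0.88) and Atp6ap2 (0.88), and Hspa5 most like Atraid (0.83), Ddost (0.82) and Eif4a1 (0.81). For Hspa1b they were Atg3 (0.88), Map2k1 (0.86) and Cap1 (0.83), and for Hsph1 Metrn (0.76), Nf1 (0.75) and Khdrbs1 (0.73).

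The rest of the chaperone system was read from lists of other family members. None of their genes that averaged 50 CPM or more passed a log2 ratio of 0.5 between the libraries. By the rule used above, 2.16% of all genes were higher and 1.32% lower in MOL1. Of 12 such Hsp40 genes 1 was higher there, Dnaja1 (0.66 and 0.85), and of 9 cochaperones 1, Ahsa1 (0.76 and 0.59), which stimulates Hsp90. Of 8 chaperonin genes 1 was higher there, Cct2 (0.53 and 0.60), and of 8 endoplasmic reticulum chaperones none was higher and Sdf2l1 was lower (-0.76 and -0.65). The Hsp90 of the endoplasmic reticulum, Hsp90b1, had 0.45 and 0.65. None of the 3 stress factors was higher or lower by this rule, nor were Hspa4l (0.06 and -0.79) and Hspb11 (-0.11 and -0.29). All 8 immediate early genes that reached 50 CPM were higher in MOL1 (Fos, Fosb, Jun, Junb, Jund, Egr1, Dusp1 and Klf6), with a median of 3.33 and 3.28. Of these, Fos, Fosb, Egr1 and Dusp1 are markers of that label. Fosb was at 52.5 and 52.2 CPM over all cells but 429 and 425 in MOL1, and Dusp1 at 68.0 and 56.6 but 397 and 336. Both reached 50 CPM only through MOL1, so the filter fixed that they were higher there. Among the most abundant, Jund (1543 and 1285 CPM) had 0.80 and 0.89 and Jun (621 and 539 CPM) 2.73 and 2.94.

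In MOL2/4, where Hspa5 was highest, 6 of 8 endoplasmic reticulum chaperones were also higher, against 9.84% of all genes. They were Pdia3 (2.16 and 1.94), Sdf2l1 (1.31 and 1.33), Calr (1.10 and 1.08), Canx (0.99 and 0.82), Manf (0.93 and 0.67) and Ppib (0.90 and 1.14), most of which help secreted and membrane proteins to fold. Hsp90b1 (1.09 and 0.82) and the reticulum's Hsp40 genes Dnajb11 (0.94 and 1.65) and Dnajc3 (1.10 and 0.76) were higher there too. Hsp90b1 (0.74 and 0.60) and Dnajb11 (0.82 and 1.06) were also higher in MOL2/MFOL, where Hspa5 was not (-0.07 and -0.49), as was the chaperonin gene Cct7 (1.04 and 0.87). In MOL2/4, 5 of 9 cochaperones of the cytosol were lower, namely Bag1, St13, Ptges3, Fkbp4 and Sugt1, against 26.6% of all genes. Of 12 Hsp40 genes 3 were lower in MOL2/4, a share near that of all genes. They were Dnajb2 (-0.60 and -1.09), Dnajb6 (-0.54 and -1.03) and Dnajc19 (-0.74 and -1.55). Ahsa1 (0.97 and 1.13) and Fkbp4 (0.57 and 0.51) were higher in MOL2/MFOL and in MOL6a (0.51 and 0.90, 0.54 and 0.57), 2 of 9 cochaperones in each, against 4.94% and 2.27% of all genes. In MOL1, where Hsp90ab1 was also high, Fkbp4 had 0.44 and 0.53.

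A 2-fold difference between labels in both libraries was met by Hsp90b1, Hspb11, 7 of 12 Hsp40 genes (Dnaja1, Dnaja2, Dnajb2, Dnajb11, Dnajc3, Dnajc5 and Dnajc15), 6 of 9 cochaperones (Bag1, St13, Ahsa1, Ptges3, Fkbp4 and Sugt1), 6 of 8 chaperonins (Hspd1, Hspe1, Cct2, Cct3, Cct4 and Cct7), the same 6 endoplasmic reticulum chaperones and 3 of 3 stress factors (Atf4, Xbp1 and Ddit3), set against 69.8% of all genes. Dnajb2 (677 and 609 CPM), named above as like Cryab, had an 11.5-fold and 8.13-fold difference between its highest and lowest label. Of the other Hsp70 genes, Hspa4l (77.0 and 73.6 CPM) did not meet it, and Hspa4 (45.6 and 42.4 CPM) was below the minimum, as were Trap1 (11.9 and 12.6 CPM) and Hspb6 (6.31 and 7.53 CPM). Other abundant genes of these lists were Dnajc19 (277 and 275 CPM), St13 (349 and 325 CPM), Ptges3 (253 and 235 CPM), Hspe1 (268 and 273 CPM), Cct5 (123 and 116 CPM), Canx (172 and 169 CPM), Ppib (150 and 162 CPM), Atf4 (89.6 and 103 CPM), Ddit3 (70.1 and 65.6 CPM) and Hspb11 (64.7 and 66.9 CPM).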

How the data were processed

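Reads were aligned by the authors with STAR, and Cell Ranger 2.1.1 and mm10 stand in the submitters' processing notes. The annotation was not given in the sources used here. Cells were limited by the authors to 200 to 3000 genes and under 5% mitochondrial UMIs. The deposited matrix holds a signal, each gene's fraction of a cell's UMIs. The deposited table of cells gives total UMI counts, gene counts, library and labels, and its other 35 columns were not used. Dividing by each cell's smallest value returned UMI counts, 100% of them within 0.01 of a whole number, and 2820 of the 2853 cells met the authors' limits when recounted. No doublet caller was run.

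UMIs were summed per library and label and given as CPM. There was 1 library per origin, and nothing was tested. Levels have exact Poisson intervals, shares Clopper-Pearson intervals, and log2 ratios an interval conditional on both sums. The background was the 2958 genes averaging 50 CPM or more. Labels needed 20 cells per library. The random seed for thinning was 1. The gene list, the other lists and the rules were chosen with earlier results of these data known. Named genes were the 9 members, their 3 most like genes, and from each other list the 2 most abundant genes and those past a fold used in a count. The tools were numpy 2.4.6, scipy 1.17.1, pandas 2.3.3 and matplotlib 3.10.9 under Python 3.11.15, with edgeR 4.0.16 in R 4.3.3 for TMM factors only, and ratios and spread were checked on simulated data.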

Additional observations from a re-analysis of the deposited data

Results flagged for a closer look

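Hspa1a in MOL2a, against the other mature labels, went opposite ways in the libraries, with a log2 ratio of -0.93 (-1.36 to -0.54) for TdTom+ cells and 0.83 (0.36 to 1.29) for GFP+ cells. The difference between the libraries was not tested, since each is 1 sample. The GFP+ value came from 48 UMIs in 18 of 67 cells and the TdTom+ value from 55 UMIs in 21 of 163 cells. With the 2 cells that held most Hspa1a left out, the GFP+ ratio was 0.42 (-0.13 to 0.94) and the TdTom+ ratio -1.26 (-1.75 to -0.83).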

How the results depend on the processing

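No paired analysis was possible because neither origin has a second library. No gene of the 9 passed a log2 ratio of 0.5 between the libraries under any of the 7 alternatives, and of 63 ratios 62 stayed within their counting interval (Cryab fell to 0.02 with equal label shares). With no filter on low genes 10.6% of all genes passed that ratio, and with a filter of 200 CPM 0.687%. The number of genes with a 2-fold difference between labels was 7 with merged labels, 8 without OPC, 7 without OPC and MOL1, and 8 or 9 under the others. The number higher in MOL1 was 4 or 5. The number with a CV of at least 0.5 was 6 over all cells of a library rather than within labels, 4 after thinning, 2 within the study's limits and 2 without the highest 1% of cells. The median r between members was 0.0499 without centering, 0.0536 as Spearman's rho and 0.0459 in the GFP+ library alone, against 0.0270. The median share of cells with a UMI was 14.8%, and 21.7% without thinning, 4.66% at 500 UMIs and 6.73% for at least 2 UMIs. Leaving out the cell with most microglial UMIs and the 2 cells that share a barcode, an alternative chosen after seeing the data as were those without OPC and MOL1 and those without the highest cells of Hspa5 and Hspa1a, gave the same 4 counts. Depth limits Hspa1b and Hsph1 most, with 99 and 48, and 308 and 146 UMIs.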
